A study of Sus scrofa with 5 samples.

Results

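The 10 genes described here are transcription factors and bone morphogenetic proteins (BMPs) known from cartilage and bone: SOX9, SOX5, SOX6, RUNX1, RUNX2, MSX2, TRPS1, BMP2, BMP3 and BMP4. They were matched by gene symbol, and all 10 were found among the 35670 features of the count matrices. Their UMI counts (unique molecular identifiers, each standing for 1 captured RNA molecule) were read in nuclei of the abdominal aorta of castrated male Ossabaw pigs, a breed used as a model of obesity. Diets began at 12 months of age. The obese group (n = 3) received a high-fat, high-fructose diet (HF/HFru), and the control group (n = 2) received chow. The sample labels give 6 months of diet and the series text gives 9 months. The series title calls the aortae atherosclerotic and healthy, but no lesion measure was used here. Each library was made from about 50 mm of frozen vessel, and nuclei were sorted on the DNA dye DRAQ5, which does not select a cell type. The libraries are labelled as replicates with no animal number, so the p-values below measure the spread between these 5 samples, each taken here as 1 pig.

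SOX9 is the factor that starts the cartilage programme, and SOX5 and SOX6 work beside it on cartilage matrix genes. RUNX2 is required for bone-forming cells, and its relative RUNX1 is best known from blood cell formation. BMPs are secreted ligands that signal through receptor complexes and SMAD proteins, and arterial smooth muscle can take on cartilage-like and bone-like gene programmes when the wall calcifies.

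Library depth was 21516249 to 47724416 UMIs, and 41981 nuclei were kept, between 5437 and 11072 per pig. Pairs of libraries shared only 10 to 29 barcodes. Nuclei fell into 27 clusters, and classes were named from marker genes with the ending "-like". RUNX1 and RUNX2 were the only members among the variable genes that shaped the clusters, so levels between classes are a description. Within smooth muscle-like and endothelial-like nuclei, different clusters held most nuclei of obese and control pigs. Smooth muscle-like nuclei of control pigs were mostly in clusters 1, 3, 4 and 6, whereas clusters 2, 7 and 12 came mostly from obese pigs. Endothelial-like nuclei held cluster 21, led by NOS3, BMX and EDN1, at 61.5% and 74.5% in the control pigs but at 21.4%, 10.7% and 18.0% in obese pigs 1 to 3. The rest of that class was cluster 17, led by EMCN, VWF and FLT1. Median depth of endothelial-like nuclei was 1473, 1612 and 1579 UMIs in obese pigs and 5000 and 5540.5 UMIs in control pigs. This gap lies under every endothelial-like result below, and its part in them was not tested.

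SOX5, TRPS1, SOX6, RUNX1 and RUNX2 were measured well, whereas SOX9, MSX2, BMP2 and BMP3 gave between 40 and 249 UMIs over all nuclei. Levels are in CPM, the UMIs of a gene scaled to a fixed total per class and pig, and they are compared between classes for 1 gene at a time because the gene spans differ from 5.162 kb for SOX9 to 1006.514 kb for SOX5 (RefSeq, Sscrofa11.1). SOX5 was highest in pericyte-like nuclei among the 4 wall classes, at 2600 ± 381 CPM (SD, n = 5), followed by smooth muscle-like nuclei at 1468 ± 279, a gap larger than either SD. Endothelial-like nuclei, at 918 ± 403 CPM, and fibroblast-like nuclei, at 854 ± 134, did not differ beyond their spread. SOX6 was highest of the 4 classes in smooth muscle-like nuclei, at 520 ± 111 CPM, and lowest in endothelial-like nuclei, at 94.9 ± 38.6.

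RUNX1 had its highest levels in T or NK cell-like nuclei, at 1607 ± 466 CPM, and macrophage-like nuclei, at 1156 ± 350, which overlapped. Fibroblast-like nuclei held 485 ± 115 CPM of RUNX1, and smooth muscle-like nuclei held 64.7 ± 50.6. RUNX2 was likewise highest in T or NK cell-like nuclei, at 819 ± 247 CPM, and among the 4 wall classes in fibroblast-like nuclei, at 180 ± 30.8. TRPS1 was highest in fibroblast-like nuclei, at 1728 ± 256 CPM, with macrophage-like nuclei at 1590 ± 634 within the spread. Neighbours in the order of classes differed beyond their spread for TRPS1 between T or NK cell-like nuclei, at 1470 ± 497 CPM, and B or plasma cell-like nuclei, at 723 ± 458.

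**Figure D1:**
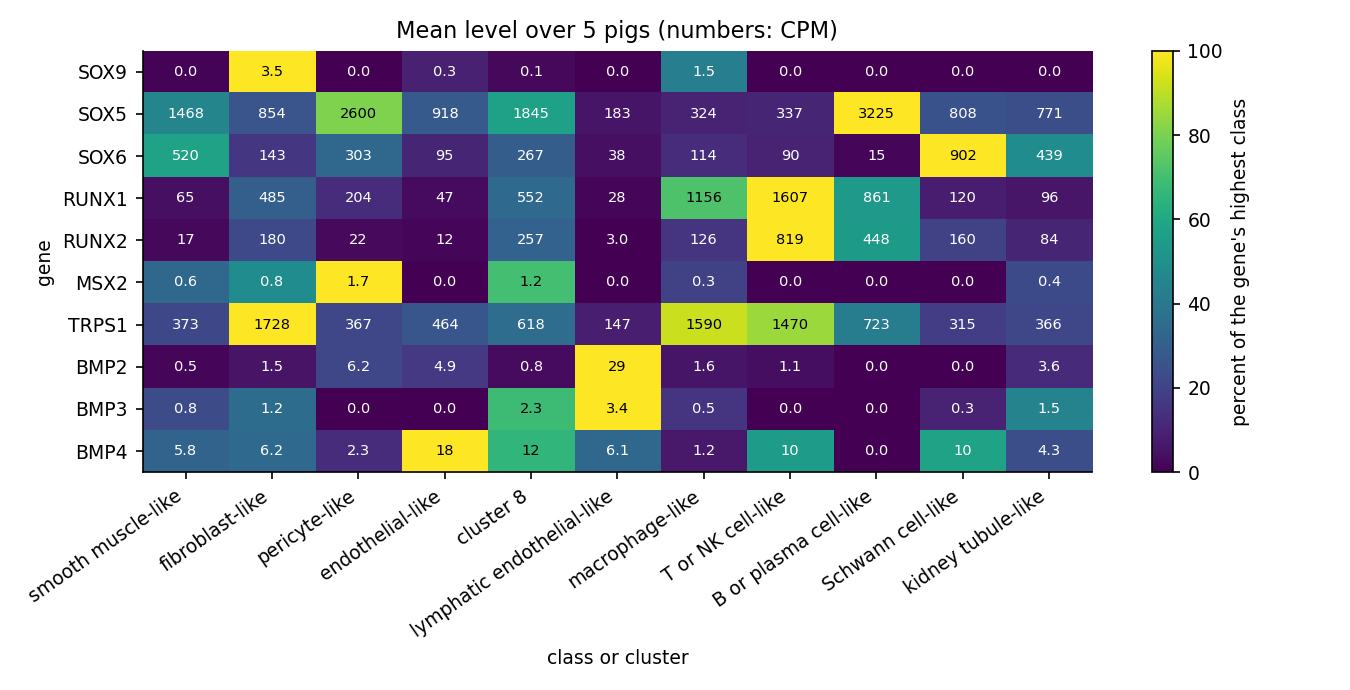
Mean level over 5 pigs of each gene (rows) in each class or cluster (columns), with the mean CPM printed in the cell and the colour giving the percent of that gene's highest class. SOX5 peaks in B or plasma cell-like and pericyte-like nuclei, TRPS1 in fibroblast-like nuclei and RUNX1 and RUNX2 in T or NK cell-like nuclei. The first of these peaks rests on 1 control pig.

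Obese and control pigs were compared within each class by edgeR's quasi-likelihood test on counts summed per pig, and a gene was called at a Benjamini-Hochberg adjusted p under 0.05 over all genes tested. In smooth muscle-like nuclei 8 of the 10 members passed the filter on low counts and 1, RUNX1, was called, where 0.252% of 17482 genes were called. The median log2 difference of the 8 tested members was 0.13, against 0.005 over all genes tested. In fibroblast-like nuclei 5 members were tested and none was called, where 0.181% of 8826 genes were called, and the medians were 0.06 and 0.005. In pericyte-like nuclei 4 members were tested and edgeR called 0.0% of 5388 genes, although 571 genes had an unadjusted p under 0.05. There DESeq2 called 30 genes (0.557%) and limma-voom 0. In endothelial-like nuclei 4 members were tested and 2, RUNX1 and SOX6, were called, where 8.4% of 6499 genes were called. The endothelial-like medians were 0.43 for the tested members and -0.026 for all genes.

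**Figure D2:**
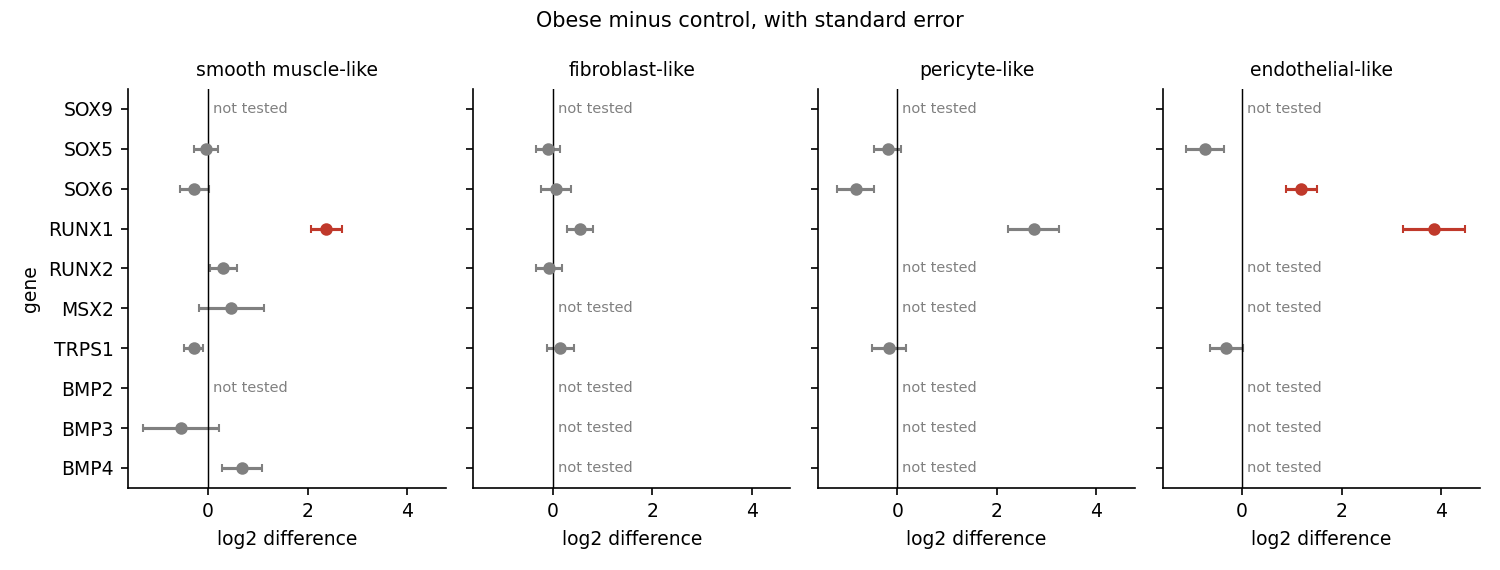
Log2 difference, obese minus control, of each member (rows) in the 4 wall classes (panels), with bars of 1 standard error from edgeR. Red points passed the adjusted threshold, and grey points did not. RUNX1 is called in smooth muscle-like and endothelial-like nuclei and SOX6 in endothelial-like nuclei.

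SOX9, the cartilage initiator, was close to absent at this depth. It gave 40 UMIs in all, of which 25 (62.5%) lay in fibroblast-like nuclei. Of these, 22 came from obese pig 2, at 13.99 CPM, against 0 and 1.14 CPM in the other obese pigs and 0 and 2.22 CPM in the control pigs, so the groups overlapped. Cluster 20 of that 1 pig held 20 of them. Smooth muscle-like nuclei held 3 SOX9 UMIs, 1 in each obese pig, and 0 in the control pigs. Pericyte-like nuclei held none. SOX9 was not tested in any of the 4 classes.

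SOX5, a partner of SOX9, showed no difference with diet that passed the test. Smooth muscle-like nuclei held 1689, 1709 and 1038 CPM in obese pigs 1 to 3 and 1358 and 1546 CPM in control pigs 1 and 2, and the groups overlapped (log2 difference -0.05, SE 0.24). Pericyte-like nuclei gave 2722, 2178 and 2345 CPM against 3169 and 2588. In endothelial-like nuclei SOX5 measured 1035, 530 and 541 CPM in obese pigs and 984 and 1501 CPM in control pigs, a log2 difference of -0.74 (SE 0.38) with edgeR's adjusted p = 0.255. Obese pig 1 lay between the control pigs. The highest SOX5 level anywhere was 12566 CPM in the B or plasma cell-like nuclei of control pig 2, a class of few nuclei.

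SOX6, the other partner, was called higher in endothelial-like nuclei of obese pigs, but the call did not hold when any 1 pig was left out. Its levels were 110, 142 and 112 CPM in obese pigs 1 to 3 and 65.0 and 46.3 CPM in control pigs, with no overlap. A share of 19.6% of all genes tested there also lay higher in every obese pig. The log2 difference was 1.19 (SE 0.31) with edgeR's adjusted p = 0.0455, and leaving out 1 pig gave edgeR adjusted p-values of 0.0695 to 0.371. Within cluster 17 SOX6 stood at 165, 157 and 105 CPM against 171 and 121 CPM, a log2 difference of -0.03, and within cluster 21 at 54.4, 59.2 and 126 CPM against 49.0 and 40.4 CPM, a difference of 0.92 that was not called. The 2 clusters therefore gave no called difference, while their shares of the class differed between the groups. The 38 UMIs of obese pig 3 came from 10 nuclei, and 14 of them from 1 nucleus.

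SOX6 in endothelial-like nuclei also moved with smooth muscle RNA. The summed level of the 10 smooth muscle markers in endothelial-like nuclei was 12.4%, 23.9% and 10.5% of their own class's level in obese pigs 1 to 3, and 9.71% and 7.19% in the control pigs. SOX6 was at 24.2%, 58.3% and 22.9% of its level over all nuclei of the library in obese pigs, and at 14.4% and 8.54% in control pigs. Both measures were higher in every obese pig, and the part of free RNA in the SOX6 difference was not tested. In smooth muscle-like nuclei themselves SOX6 measured 564, 327 and 566 CPM in obese pigs and 531 and 610 CPM in control pigs, which overlapped (log2 difference -0.27, SE 0.29).

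In pericyte-like nuclei SOX6 was lower in every obese pig, at 241, 153 and 282 CPM against 426 and 415 CPM. The log2 difference of -0.84 (SE 0.37) did not pass edgeR's test, at an adjusted p of 0.455, and 15.7% of genes tested there lay lower in every obese pig. The diet difference of SOX6 was itself compared between classes with the pig as a block. It was 1.32 (SE 0.38) more positive in endothelial-like than in smooth muscle-like nuclei, with edgeR's adjusted p = 0.0173 where 4.0% of genes were called. That call was lost without obese pig 2 (edgeR adjusted p = 0.255) and without control pig 2 (0.673). It was 2.08 (SE 0.44) more positive in endothelial-like than in pericyte-like nuclei, with edgeR's adjusted p = 0.0202 where 1.93% of genes were called, and it was lost without obese pig 2 (0.0843), control pig 1 (0.0701) or control pig 2 (0.179).

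RUNX1, the RUNX factor of blood cells, gave the largest differences among the members tested in the 4 classes. Its smooth muscle-like levels were 80.7, 138.9 and 69.0 CPM in obese pigs 1 to 3, from 1063, 2615 and 1233 UMIs. Control pigs 1 and 2 were at 15.1 and 19.8 CPM, from 489 and 288 UMIs. Neither control pig reached the lowest obese pig, an order shown by 17.3% of the genes tested in this class. The group means were 96.2 ± 37.5 CPM (SD, n = 3) and 17.5 ± 3.34 CPM (SD, n = 2). RUNX1 rose by a log2 difference of 2.38 (SE 0.31) with edgeR's adjusted p = 0.0241. That call was lost when obese pig 1 (edgeR adjusted p = 0.13), control pig 1 (0.197) or control pig 2 (0.089) was left out, while the difference stayed between 2.11 and 2.62.

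The smooth muscle difference was seen across clusters of the class but followed RUNX1 in the whole library. Over all nuclei of a library RUNX1 stood at 281, 524 and 215 CPM in obese pigs and at 69.2 and 64.2 CPM in control pigs. Its level in smooth muscle-like nuclei was 28.7%, 26.5% and 32.1% of that value in obese pigs and 21.8% and 30.9% in control pigs, so this fraction overlapped between the groups. Macrophage-like nuclei held 36.0% of all RUNX1 UMIs but 5.76% of all UMIs. They numbered 402, 1382 and 140 in obese pigs and 57 and 36 in control pigs, and their part in the whole-library level was not tested. RUNX1 was positive in 9 of 9 smooth muscle-like clusters that could be fitted alone, with log2 differences of 1.36 to 3.09, and 3 of these, clusters 1, 6 and 9, were called. The share of all genes called was 0.0367%, 0.38%, 0.105%, 0.135% and 0.347% in clusters 0, 1, 4, 5 and 6, and 0.0427%, 0.285%, 0.0279% and 0.304% in clusters 7, 9, 12 and 14. In cluster 3, which came almost wholly from control pigs and was not fitted, obese pigs at 42.1, 9.6 and 16.6 CPM overlapped the control pigs at 12.9 and 16.0 CPM.

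Nuclei with a RUNX1 UMI were also counted after thinning each nucleus to 1000 UMIs. The share was 6.65%, 10.8% and 5.12% of smooth muscle-like nuclei in obese pigs and 1.54% and 1.55% in control pigs, from unthinned shares of 13.7%, 21.0%, 9.96%, 3.96% and 4.20%. Kidney tubule-like nuclei, which are foreign to the aortic wall, gave 8.38%, 5.56% and 5.80% in obese pigs and 13.3% (2 of 15 nuclei) and 0% (0 of 4 nuclei) in control pigs. Their median depth was 648 to 792 UMIs, against 1844 to 2579 UMIs in smooth muscle-like nuclei. The smooth muscle shares of obese pigs 1 and 3 were below those of kidney tubule-like nuclei in the same libraries. Kidney tubule-like nuclei held the smooth muscle marker MYH11 at 2666 CPM, against 3442 CPM in smooth muscle-like nuclei. They are thus no background free of wall RNA, and whether these shares show expression was not tested. Obese pig 2 was above its kidney tubule-like value, which came from 1 of 18 nuclei (95% exact binomial interval 0.141% to 27.3%). The part of free RNA in the smooth muscle difference was not tested.

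RUNX1 was next compared with immune markers in the smooth muscle-like nuclei. The 10 measured of 11 macrophage markers summed to 17.2, 52.3 and 11.3 CPM in obese pigs and 5.80 and 8.05 CPM in control pigs, and at most 1 of them was at 0 in a pig. RUNX1 had 2.46 to 6.10 UMIs per macrophage marker UMI there, whereas macrophage-like nuclei had 0.25 to 1.06. The part of macrophage RNA in the smooth muscle difference was not tested. Leaving out every nucleus with a UMI of an immune marker gave RUNX1 levels of 77.5, 137 and 68.1 CPM against 16.1 and 23.8 CPM. The log2 difference was then 2.17, with edgeR's adjusted p = 0.0379 where 0.279% of genes were called.

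**Figure D3:**
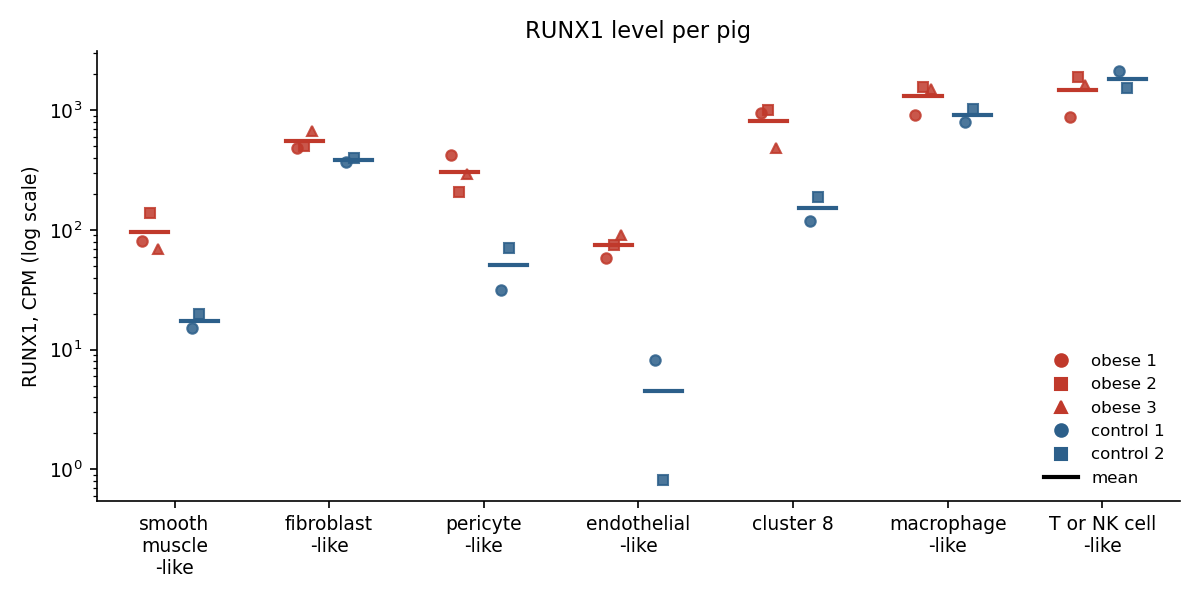
RUNX1 level (CPM, log axis) per pig in the 4 wall classes, the unnamed cluster 8, macrophage-like and T or NK cell-like nuclei, with red points for obese and blue points for control pigs and a line at each group mean. The groups are apart in the 4 wall classes and cluster 8 and overlap in macrophage-like and T or NK cell-like nuclei.

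Pericyte-like nuclei showed a RUNX1 difference of similar size that edgeR did not call. RUNX1 was at 420, 207 and 294 CPM in obese pigs, from 152, 108 and 74 UMIs, and at 31.4 and 70.1 CPM in control pigs, from 11 and 12 UMIs. The groups did not overlap, as was so with obese pigs higher for 12.4% of genes tested. The log2 difference was 2.74 (SE 0.51), with edgeR's adjusted p = 0.137 and DESeq2's adjusted p = 0.00235. After thinning, 28.3%, 17.4% and 17.9% of pericyte-like nuclei in obese pigs held a RUNX1 UMI, against 4.12% and 6.52% in control pigs. The obese values lay above those of kidney tubule-like nuclei in the same libraries. For obese pig 2 the kidney tubule-like interval given above includes the pericyte-like share. Macrophage markers in pericyte-like nuclei summed to 60.9, 63.2 and 19.8 CPM in obese pigs and 5.71 and 5.84 CPM in control pigs, where 9 of the 10 measured were at 0. Without nuclei that held an immune marker the log2 difference was 2.40, with edgeR's adjusted p = 0.115. The part of macrophage RNA in the pericyte difference was not tested.

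In endothelial-like nuclei RUNX1 rested on few molecules. Obese pigs 1 to 3 held 30, 39 and 31 UMIs (57.9, 74.6 and 91.1 CPM), and control pigs 1 and 2 held 21 and 1 UMIs (8.27 and 0.81 CPM). No control pig reached the lowest obese pig, an order shown by 19.6% of the genes tested in this class, where 8.4% of genes were called. RUNX1 rose by a log2 difference of 3.86 (SE 0.62) with edgeR's adjusted p = 0.0084, and leaving out any 1 pig kept it called (log2 difference 3.21 to 6.26, edgeR adjusted p 0.0065 to 0.0272). Without doublet removal, where 50.9% of the nuclei stayed in the class, the call was lost (edgeR adjusted p = 0.0635). Cluster 21 held only 42, 24 and 22 nuclei in obese pigs 1 to 3, against 251 and 146 in control pigs. RUNX1 levels within it were 50.6, 59.2 and 215 CPM against 7.71 and 0.88 CPM (log2 difference 4.50, edgeR adjusted p = 0.0492, where 1.11% of genes were called). Within cluster 17 they were 65.2, 77.6 and 30.6 CPM against 12.0 and 0 CPM (log2 difference 2.71, edgeR adjusted p = 0.281).

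These endothelial levels were 20.6%, 14.2% and 42.4% of the RUNX1 level over all nuclei for obese pigs 1 to 3, against 12.0% and 1.26% for the control pigs. The thinned share with a RUNX1 UMI was 5.38%, 6.16% and 4.76% in obese pigs and 0.877% and 0% (0 of 172 nuclei) in control pigs. It was below that of kidney tubule-like nuclei in obese pigs 1 and 3. In obese pig 2 it was above, but within the kidney tubule-like interval given above. Endothelial-like nuclei were also shallower in every obese pig, at a median of 1473 to 1612 UMIs against 5000 and 5540.5 UMIs. The parts of depth and of free RNA in the endothelial difference were not tested. Macrophage markers summed to 15.4, 97.6 and 14.7 CPM against 5.12 and 7.31 CPM. RUNX1 had 3.75, 0.76 and 6.2 UMIs per macrophage marker UMI in obese pigs and 1.62 and 0.11 in control pigs. Obese pig 2 thus lay within the range of macrophage-like nuclei, and the part of macrophage RNA was not tested. Without nuclei holding an immune marker RUNX1 stood at 73.4, 90.8 and 100 CPM against 5.32 and 1.11 CPM, a log2 difference of 4.56 with edgeR's adjusted p = 0.0025 where 9.98% of genes were called.

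Fibroblast-like nuclei held more RUNX1 than the other wall classes and showed the smallest difference. Their levels were 484, 505 and 665 CPM in obese pigs and 373 and 396 CPM in control pigs, without overlap, where 12.7% of genes lay higher in every obese pig. The log2 difference of 0.55 (SE 0.26) did not pass edgeR's test, at an adjusted p of 0.47. The diet difference was 3.38 (SE 0.56) larger in endothelial-like than in fibroblast-like nuclei, with edgeR's adjusted p = 0.0209 where 1.01% of genes were called, and without control pig 2 the adjusted p was 0.0723. Against smooth muscle-like nuclei the fibroblast difference was lower by 1.85 on the log2 scale, which edgeR did not call (adjusted p = 0.0937). In that comparison, as in pericyte-like against fibroblast-like nuclei, edgeR called no gene.

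Cluster 8, which passed no class threshold and was led by CDH18, ALDH1A2 and TRPC4, carried much of the RUNX1 outside immune nuclei. It held 19.8% of all RUNX1 UMIs but 8.03% of all UMIs. Obese and control nuclei lay apart within it. At resolution 2.0 the genes that led it led 2 clusters, 1 with 485, 488 and 360 nuclei of obese and 10 and 19 of control pigs, and 1 with 14, 31 and 42 nuclei of obese and 579 and 88 of control pigs. RUNX1 was not compared within these finer clusters. In cluster 8 RUNX1 stood at 953, 1012 and 487 CPM in obese and 119 and 189 CPM in control pigs, with the groups apart. It rose by a log2 difference of 2.43 (SE 0.36) with edgeR's adjusted p = 0.0093, where 2.9% of 10836 genes were called. The call was lost without obese pig 1 (edgeR adjusted p = 0.0608) and without control pig 1 (0.0843). After thinning, 42.1%, 45.9% and 29.7% of nuclei held a RUNX1 UMI in obese pigs and 8.76% and 12.6% in control pigs, and every obese value lay well above the kidney tubule-like nuclei. Macrophage markers overlapped between the groups in this cluster, at 20.9, 45.3 and 9.39 CPM against 20.9 and 10.5 CPM. In macrophage-like nuclei RUNX1 stood at 911, 1561 and 1496 CPM against 793 and 1018 CPM, which overlapped (log2 difference 0.68, edgeR adjusted p = 0.47, where 1.0% of genes were called).

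**Figure D4:**
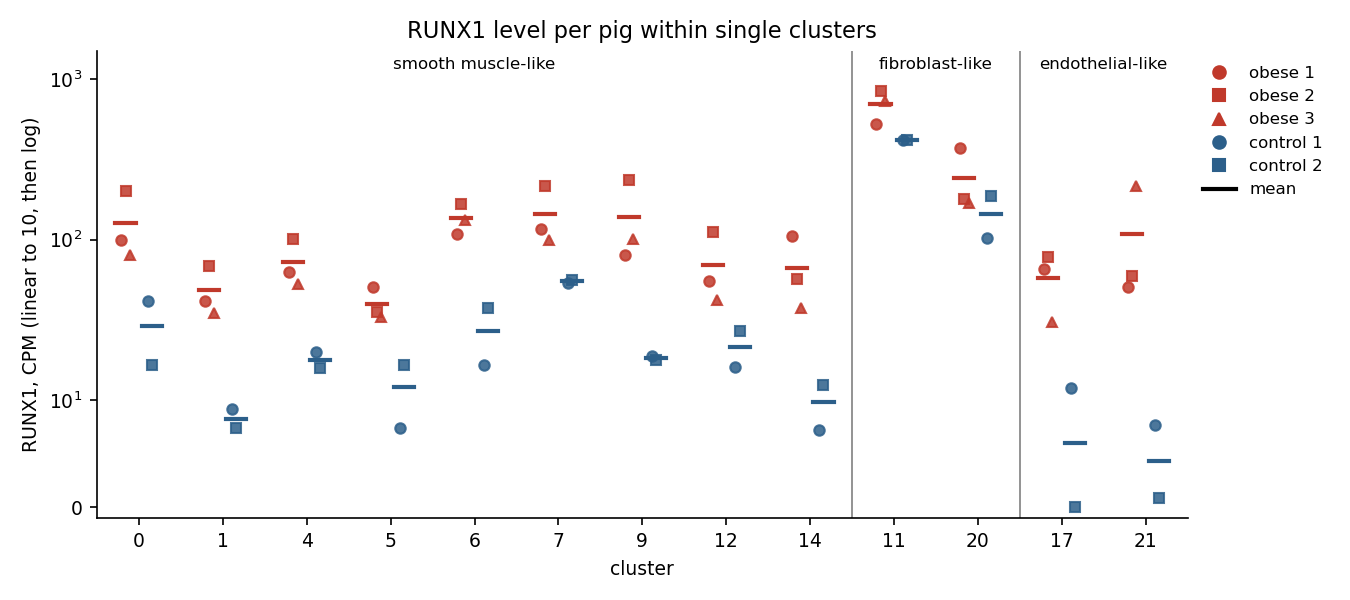
RUNX1 level (CPM, linear to 10 and then log) per pig in the single clusters of smooth muscle-like, fibroblast-like and endothelial-like nuclei that could be fitted alone, with red points for obese and blue points for control pigs and a line at each group mean. The obese mean lies above the control mean in every cluster shown, and the largest fitted log2 difference, 4.50, is that of the endothelial-like cluster 21. That cluster held only 22 to 42 nuclei per obese pig.

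One more measure moved with the groups. The summed level of 8 immediate-early genes, which respond to handling and stress, reached 1612, 947 and 3018 CPM in obese and 593 and 765 CPM in control pigs within the smooth muscle-like class. In endothelial-like nuclei it was 2203, 2428 and 3347 CPM against 679 and 699 CPM. Fibroblast-like nuclei gave 2300, 1826 and 3863 CPM against 765 and 814 CPM, and cluster 8 gave 1966, 1903 and 3667 CPM against 1558 and 886 CPM. These 4 sets were apart between the groups, whereas pericyte-like nuclei overlapped, at 2512, 2455 and 4004 CPM against 1726 and 3003 CPM. Its part in the RUNX1 differences was not tested.

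RUNX2, the bone factor, did not pass the test in any wall class. Its smooth muscle-like levels were 19.1, 21.2 and 14.4 CPM in obese pigs and 12.2 and 15.8 CPM in control pigs, which overlapped (log2 difference 0.31, SE 0.28, edgeR adjusted p = 0.675). Fibroblast-like nuclei, where it was higher, gave 223, 160 and 143 CPM against 190 and 185 CPM (log2 difference -0.08, SE 0.26). In cluster 8 RUNX2 was at 430, 289 and 216 CPM against 103 and 246 CPM, a difference of 0.89 with edgeR's adjusted p = 0.257. Endothelial-like and pericyte-like nuclei held too few RUNX2 UMIs for a test.

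MSX2, a homeobox factor that BMPs can induce, gave 92 UMIs in all. Smooth muscle-like nuclei held 59 of them, 7, 9 and 18 UMIs in obese pigs and 22 and 3 in control pigs, and edgeR gave a log2 difference of 0.47 (SE 0.66) with the groups overlapping. Endothelial-like nuclei held 0 MSX2 UMIs in every pig, which allows up to 2.17 CPM in the obese pigs together and 0.796 CPM in the control pigs together. TRPS1, a zinc-finger repressor of growth plate cartilage, was abundant and close between the groups. Its fibroblast-like levels were 1740, 1471 and 2148 CPM against 1687 and 1595 CPM (log2 difference 0.16, SE 0.27). In smooth muscle-like nuclei TRPS1 was lower in every obese pig, at 351, 389 and 311 CPM against 396 and 421 CPM, where 12.3% of genes showed that order. That log2 difference of -0.29 (SE 0.20) did not pass edgeR's test, at an adjusted p of 0.564.

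BMP4, a ligand that endothelium and mesenchyme secrete, was lower in endothelial-like nuclei of obese pigs. Obese pigs 1 to 3 held 3, 4 and 1 UMIs (5.79, 7.65 and 2.94 CPM), and control pigs 1 and 2 held 47 and 69 UMIs (18.5 and 56.1 CPM). Every obese pig was below both control pigs, as were 25.3% of all genes tested in the class. The ratio of pooled levels was 0.188, with a 95% counting interval of 0.0794 to 0.384. Counting intervals here and below leave out the spread between pigs. BMP4 did not pass the filter on low counts, so it had no test in that class as planned. Without the filter edgeR gave a log2 difference of -2.74 (SE 0.61) and an adjusted p of 0.000483, where 4.85% of 22120 genes were called.

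BMP4 was also read in each endothelial cluster. Cluster 21, whose share was larger in control pigs, held 1 BMP4 UMI in the obese pigs together and 112 in the control pigs together, and the ratio of pooled levels was 0.0659 (95% counting interval 0.00165 to 0.375). Cluster 17 gave 7.67, 9.13 and 4.37 CPM in obese pigs and 5.98 and 22.0 CPM in control pigs, which overlapped. The ratio of pooled levels there was 0.802, from 7 and 4 UMIs, with a 95% counting interval of 0.204 to 3.74 that does not exclude a difference, and the 2 clusters were not tested against each other. Beside smooth muscle-like nuclei the endothelial diet difference of BMP4 was -3.21 on the log2 scale (SE 0.71), with edgeR's adjusted p = 0.000473, and the call was lost without control pig 2 (edgeR adjusted p = 0.436). That comparison of classes called 4.0% of all genes tested. Smooth muscle-like nuclei held BMP4 at 4.40, 6.69 and 9.57 CPM in obese pigs and 4.69 and 3.58 CPM in control pigs, which overlapped (log2 difference 0.69, SE 0.40).

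BMP2, which can drive bone formation, was scarce, with 152 UMIs in all. In endothelial-like nuclei obese pigs held 3, 4 and 3 UMIs and control pigs 1 and 2 UMIs. The ratio of pooled levels was 9.10, with a 95% counting interval of 2.34 to 51.5 that leaves out the spread between pigs. Every obese pig was above both control pigs in CPM, as for 19.6% of all genes tested there. Fibroblast-like nuclei held 3, 5 and 1 BMP2 UMIs in obese pigs and 0 in both control pigs, at least 2.82-fold higher against 3 counts over the control group. Among genes tested there, 12.7% lay higher in every obese pig. Pericyte-like nuclei showed the opposite order, at 2.77, 3.83 and 3.97 CPM in obese and 8.57 and 11.7 CPM in control pigs, from 4 and 5 UMIs. That ratio of pooled levels was 0.367, and its 95% counting interval of 0.0728 to 1.71 includes no difference. Of the genes tested in pericyte-like nuclei, 15.7% lay lower in every obese pig. Lymphatic endothelial-like nuclei held 30 of all BMP2 UMIs, 5, 24 and 1 in obese pigs (42.6, 79.0 and 23.0 CPM) and 0 in both control pigs, at least 2.30-fold higher against 3 counts over the control group. These 5 samples held only 6 to 65 nuclei of that class, and no test was made. Smooth muscle-like nuclei gave BMP2 levels of 0.379, 1.28 and 0.280 CPM in obese pigs and 0.401 and 0.413 CPM in control pigs, which overlapped.

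BMP3, which opposes other BMPs in bone, gave 249 UMIs, of which 99 (39.8%) lay in cluster 24. That unnamed cluster of 176 nuclei was led by KCNIP1, KRT19 and SLC16A12, and BMP3 itself was among its leading genes. Obese pigs held 9, 78 and 9 UMIs there (183, 274 and 98.3 CPM), and control pigs held 3 and 0 (18.6 and 0 CPM). Control pig 2 had 3 nuclei in the cluster, so no test was made. Endothelial-like and pericyte-like nuclei held 0 BMP3 UMIs in every pig. Smooth muscle-like nuclei gave 0.303, 1.33 and 0.448 CPM against 1.64 and 0.206 CPM, which overlapped (log2 difference -0.54, SE 0.77).

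**Figure D5:**
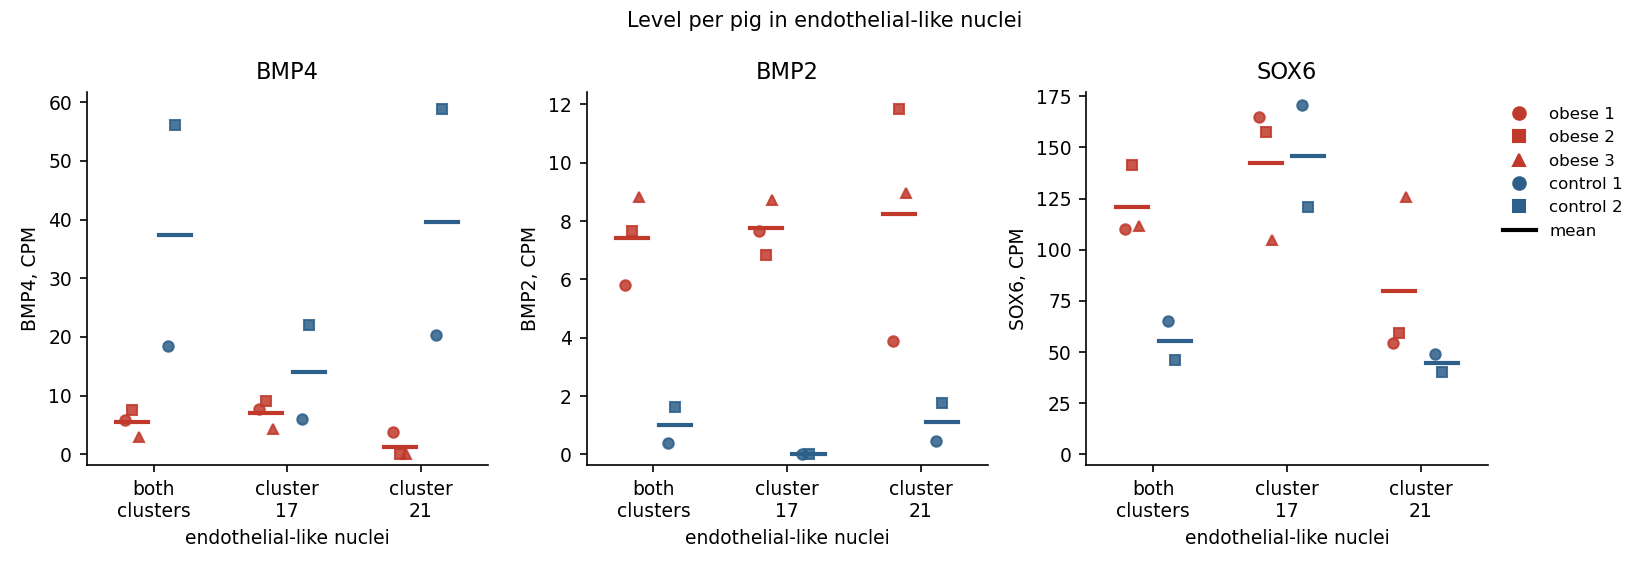
Levels of BMP4, BMP2 and SOX6 (CPM, panels) per pig in endothelial-like nuclei as a whole and in clusters 17 and 21, with red points for obese and blue points for control pigs and a line at each group mean. BMP4 is highest in the control pigs of cluster 21, and SOX6 overlaps between the groups within cluster 17.

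Other genes were read from 10 lists of textbook genes, 5 of them of the BMP pathway. In smooth muscle-like nuclei 3 of 12 other BMP and GDF ligands, 10 of 10 BMP receptors, 14 of 18 antagonists and extracellular modulators, 8 of 8 SMADs of the BMP branch and 7 of 8 BMP response genes were tested. None of these genes was called by edgeR. Medians were -0.13 for the ligands, -0.20 for the receptors, 0.08 for the modulators, -0.17 for the SMADs and -0.43 for the response genes. BMPR1A, a type I receptor, stood at 720, 661 and 666 CPM in obese pigs and 902 and 673 CPM in control pigs. HEY2, a helix-loop-helix repressor, was lower in every obese pig, at 81.9, 100.0 and 87.7 CPM against 119 and 114 CPM, but edgeR's adjusted p was 0.367. ATOH8, a helix-loop-helix target of BMP signalling, was likewise lower in every obese pig, at 35.7, 70.9 and 64.2 CPM against 100.1 and 123 CPM (log2 difference -1.03, SE 0.28), with an adjusted p of 0.154 in edgeR. The order of HEY2 and ATOH8 was shown by 12.3% of the genes tested in this class.

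In endothelial-like nuclei 1 of 6 tested BMP receptors and 2 of 3 tested BMP response genes were called lower. In that class 8.4% of all genes were called, 152 of them lower. ACVRL1, the type I receptor of endothelium for BMP9 and BMP10, stood at 19.3, 7.65 and 17.6 CPM against 68.1 and 57.7 CPM (log2 difference -2.02, edgeR adjusted p = 0.025). ID2, a BMP-induced inhibitor of helix-loop-helix factors, was at 5.79, 47.8 and 35.3 CPM against 118 and 175 CPM (-2.25, edgeR adjusted p = 0.036). HEY2 was at 30.9, 32.5 and 44.1 CPM against 84.7 and 132 CPM (-1.53, edgeR adjusted p = 0.033). Every obese pig lay below both control pigs for these 3 genes, as for 25.3% of all genes tested there.

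None of ACVRL1, ID2 and HEY2 was called within a single endothelial cluster. In cluster 21 ACVRL1 gave a log2 difference of -0.74, ID2 -2.25 and HEY2 -0.98, and in cluster 17 ID2 gave -0.15 and HEY2 -0.22. Among the modulators 1 of 7 was called, TLL1, a protease that frees BMPs from chordin. TLL1 was higher in obese pigs, at 166, 593 and 514 CPM against 121 and 106 CPM (log2 difference 1.98, edgeR adjusted p = 0.037). TLL1 gave 0.90 in cluster 21 and 0.21 in cluster 17, neither called. BMP6, the ligand of highest level in this class, stood at 805, 769 and 1772 CPM against 1906 and 2319 CPM and was not called (log2 difference -0.81, edgeR adjusted p = 0.274). None of the 8 SMADs was called, with a median of -0.43.

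In fibroblast-like and pericyte-like nuclei no gene of these 5 BMP lists was called. The receptors BMPR1A and BMPR2 were the most abundant of their list in both classes. BMPR1A gave 424, 388 and 309 CPM in fibroblast-like nuclei of obese pigs and 565 and 359 CPM in control pigs, which overlapped. In pericyte-like nuclei it was lower in every obese pig, at 387, 369 and 325 CPM against 497 and 467 CPM, with a log2 difference of -0.37 (SE 0.30) that did not pass. That order was shown by 15.7% of the genes tested there. BMPR2 in pericyte-like nuclei gave 639, 534 and 441 CPM against 363 and 532 CPM, which overlapped (log2 difference 0.32, SE 0.33). CRIM1, a membrane protein that binds BMPs, gave 293, 513 and 504 CPM in pericyte-like nuclei of obese pigs and 1514 and 543 CPM in control pigs, where control pig 1 stood above the other 4. ID2 in fibroblast-like nuclei measured 100.3, 78.8 and 127 CPM against 60.5 and 83.2 CPM, an overlap set by obese pig 2.

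Partners and relatives of the transcription factors were read the same way, and their counts in endothelial-like nuclei stand beside the 8.4% of all genes called there. WWTR1, a coactivator that binds RUNX factors, was the 1 of 10 tested RUNX partners called in endothelial-like nuclei. WWTR1 was higher in obese pigs, at 2030, 1293 and 2383 CPM against 451 and 643 CPM (log2 difference 1.90, edgeR adjusted p = 0.024). It was also called in cluster 21 alone, at 2.58 (edgeR adjusted p = 0.041), and not in cluster 17, at 1.25. SOX13, of the same SOX group as SOX5 and SOX6, was the 1 of 3 other SOX factors called there and fell, at 114, 126 and 91.1 CPM against 606 and 455 CPM (log2 difference -2.19, edgeR adjusted p = 0.0043). In cluster 21 SOX13 gave -2.13 (edgeR adjusted p = 0.046), and in cluster 17 it gave -1.61 without a call. COL27A1, a collagen of cartilage, was 1 of 2 tested cartilage genes and rose by a log2 difference of 1.90 (edgeR adjusted p = 0.044). None of the 5 tested skeletal transcription factors was called in this class.

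The RUNX partners and the other SOX factors gave no call in the other wall classes. WWTR1 was close between the groups in smooth muscle-like nuclei, at 672, 694 and 699 CPM against 614 and 638 CPM (log2 difference 0.08, SE 0.20). YAP1, a coactivator related to WWTR1, was higher there in every obese pig, at 485, 441 and 343 CPM against 331 and 291 CPM, and did not pass (log2 difference 0.38, edgeR adjusted p = 0.476). SOX4 had the same order, at 1.44, 2.28 and 1.73 CPM against 0.556 and 0.964 CPM (log2 difference 1.24, edgeR adjusted p = 0.312). Of the genes tested in smooth muscle-like nuclei, 17.3% lay higher in every obese pig. SOX13 in pericyte-like nuclei was lower in every obese pig, at 96.8, 101.4 and 63.5 CPM against 154 and 152 CPM, but edgeR's adjusted p was 0.497. That order was shown by 15.7% of the genes tested there.

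The cartilage and skeletal lists gave no call in the other wall classes. Of 17 cartilage genes 8 were tested in smooth muscle-like, 5 in fibroblast-like and 2 in pericyte-like nuclei, with medians of -0.10, -0.26 and -0.94. Of 19 skeletal transcription factors 12, 9 and 8 were tested there, with medians of -0.04, 0.16 and -0.09. In fibroblast-like nuclei COMP, a cartilage matrix protein, stood at 153, 73.7 and 314 CPM in obese pigs and at 110 and 592 CPM in control pigs, which overlapped. In pericyte-like nuclei PTH1R, the receptor of parathyroid hormone and its growth plate relative, was at 44.3, 63.2 and 79.4 CPM against 111 and 152 CPM, apart between the groups and not called (edgeR adjusted p = 0.447). There 15.7% of genes tested lay lower in every obese pig. In fibroblast-like nuclei GLI2, a Hedgehog effector, stood at 1721, 711 and 1960 CPM against 1852 and 2204 CPM.

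Of the bone and mineral list only SPP1, which encodes osteopontin, was called, in 3 of the 4 classes. Smooth muscle-like nuclei held 1184 SPP1 UMIs in obese and 3 in control pigs, a ratio of pooled levels of 371 (95% counting interval 127 to 1803). Fibroblast-like nuclei held 128 and 0 UMIs (at least 40.2-fold higher) and endothelial-like nuclei 80 and 0 UMIs (at least 72.8-fold higher), each against 3 counts over the control group. EdgeR's adjusted p-values were 0.0248, 0.0443 and 0.0118, in classes where 0.252%, 0.181% and 8.4% of all genes tested were called. Over all nuclei SPP1 stood at 63.3, 217 and 22.2 CPM in obese libraries and at 0.117 and 0.148 CPM in control libraries. Kidney tubule-like nuclei of obese pigs held 50.0, 163 and 19.0 CPM of SPP1, above the smooth muscle-like levels of 18.1, 45.3 and 5.15 CPM, and macrophage-like nuclei held 699, 898 and 1380 CPM. The part of free RNA in these 3 calls was not tested. In pericyte-like nuclei ENPP1, which makes the mineral inhibitor pyrophosphate, was higher in every obese pig, at 243, 205 and 242 CPM against 163 and 93.5 CPM. ENPP1 did not pass (log2 difference 0.86, SE 0.38, edgeR adjusted p = 0.455), and 12.4% of genes tested there lay higher in every obese pig.

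The genes most like each member in pattern were taken from 20 profiles of the 4 classes in 5 pigs, by Pearson's r of log2(CPM + 1). These profiles share pigs and libraries, and r is a description without a test. SOX5 was nearest to CACNA2D1 (r = 0.90), CAMK1 (0.88) and PTPRR (0.88), and SOX6 to ADCY5 (0.94), DMD (0.94) and KCNAB1 (0.93). RUNX1 was nearest to FMNL2 (0.91), MCUB (0.88) and IQGAP2 (0.87), and RUNX2 to GLIS1 (0.97), RALYL (0.97) and POSTN (0.95). TRPS1 was nearest to PDPN (0.97), DCN (0.93) and SCN9A (0.93). The other 5 members had a mean under 10 CPM over these profiles, and no nearest gene was taken.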

How the data were processed

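Single-nucleus RNA libraries (10x 3' chemistry) of 5 pigs were used. The deposited matrices hold raw UMI counts per gene and nucleus. They were made with Cell Ranger 5.0 and analysed with Seurat 5.0 on the build Sscrofa11, per the submitters' processing notes, while the file headers name Cell Ranger 7.1.0. Whether intron reads were counted is not given in the sources used here. Of 35670 features, 17508 had a symbol in the files and 223 got one from the RefSeq table, and 17939 were kept by identifier.

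Of 45580 barcodes, 77 with under 300 genes or over 5% mitochondrial UMIs were left out. Scrublet's automatic threshold marked 12 doublets, so the 3522 nuclei of highest score were removed, at 0.8% per 1000 nuclei of a library. Clustering used scanpy 1.11.5 and leidenalg 0.10.2 (Python 3.11.15) with 3000 variable genes, 30 components, 20 neighbours and resolution 1.5. A cluster was named where at least 3 and at least 50% of a class's markers reached 10 CPM and 2-fold the 25th percentile of clusters, at a mean position of 0.3 or more between that percentile and the highest cluster, unless another class had more of its markers among the 10 leading genes. Doublet removal by rank, the resolution and the naming thresholds were set after values were seen. Class names may therefore differ from those of the study.

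Counts were summed per pig and class, where every pig had at least 20 nuclei, and tested with edgeR 4.0.16 (R 4.3.3, TMM factors, filterByExpr, quasi-likelihood F-test, Benjamini-Hochberg adjustment). Whether a diet difference varied between classes was tested by the class-by-diet term of a model that also held each pig. The same code was tested on simulated counts with 200 genes changed 4-fold, and it recovered 152 in smooth muscle-like, 148 in fibroblast-like, 123 in pericyte-like and 156 in endothelial-like nuclei. Alternatives were DESeq2 1.42.0, limma-voom 3.58.1, RLE factors, no filter, each pig left out, other resolutions, no doublet removal, members left out of clustering and nuclei thinned to 1000 UMIs. Added after seeing the data were resolution 1.0, unnamed clusters joined to smooth muscle, nuclei with immune markers left out, single clusters, the immediate-early genes and the comparison with all nuclei of a library.

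The members and gene lists were chosen with earlier results of these data known. Named are the members, called genes of each list (at most 4 per class) or otherwise its 2 tested genes of highest mean CPM, and the 3 genes most like each member. Where none was called, some of a list's 2 most abundant genes are printed. Intervals (95%, exact) and floors of 3 counts cover counting error only. Kidney tubule-like nuclei served as the class that should lack wall RNA, but they did not lack it. Their MYH11 level was 2666 CPM, against 3442 CPM in smooth muscle-like and 406 CPM in macrophage-like nuclei. Comparisons with them are therefore given as values only.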

Additional observations from a re-analysis of the deposited data

Results flagged for a closer look

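A test of the difference between 2 classes in their diet effect (edgeR, class by diet with the pig as a block, obese minus control) was called for 4 member results. Of all genes tested, 4.0% were called in endothelial-like minus smooth muscle-like nuclei. The share was 1.01% in endothelial-like minus fibroblast-like and 1.93% in endothelial-like minus pericyte-like nuclei. BMP4 gave -3.21 on the log2 scale in endothelial-like minus smooth muscle-like nuclei (SE 0.71, edgeR adjusted p = 0.000473), between -4.10 and -2.22 when 1 pig was left out, and it was lost without control pig 2 (adjusted p = 0.436). SOX6 gave 1.32 for the same classes (SE 0.38, edgeR adjusted p = 0.0173), between 0.92 and 1.81 with 1 pig left out, and was lost without obese pig 2 or control pig 2. RUNX1 gave 3.38 in endothelial-like minus fibroblast-like nuclei (SE 0.56, edgeR adjusted p = 0.0209), between 2.59 and 5.89 with 1 pig left out, and was lost without control pig 2. SOX6 gave 2.08 in endothelial-like minus pericyte-like nuclei (SE 0.44, edgeR adjusted p = 0.0202), between 1.73 and 2.33 with 1 pig left out, and was lost without obese pig 2, control pig 1 or control pig 2. Each of these results rests on the endothelial-like class, whose makeup of 2 clusters and depth per nucleus differed between the groups.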

How the results depend on the processing

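RUNX1 was positive in every alternative that gave a value for it. It was called in 14 of 18 in smooth muscle-like nuclei (log2 difference 2.08 to 2.82) and in 16 of 17 in endothelial-like nuclei, where the adjusted p was 0.0635 without doublet removal. At resolution 0.5 its smooth muscle call was lost (edgeR adjusted p = 0.0904), so 0 members were called there. It was called in 2 of 16 alternatives in pericyte-like and 0 of 17 in fibroblast-like nuclei.

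Counts of called genes moved with the processing, and the cause was not tested. Smooth muscle-like nuclei gave 44 genes, but 566 with DESeq2, 25 with limma-voom, 872 with no filter, 12 at resolution 0.5 and 17 after thinning. Fibroblast-like nuclei gave 16, but 101 with DESeq2, 329 with no filter, 25 at resolution 0.5, 5 after thinning and 8 without nuclei holding an immune marker. Pericyte-like nuclei gave 0, but 30 with DESeq2 and 83 with no filter (1 member each, RUNX1), 1 at resolution 0.5 and 7 after thinning. Resolution 1.0 gave no pericyte-like class. Endothelial-like nuclei gave 546, but 1073 with no filter, 40 without doublet removal, where 50.9% of the nuclei stayed in the class, and 49 at resolution 1.0. At resolution 1.0 the class was the 485 nuclei of cluster 21 alone, and a cluster led by PROX1, EMCN and VWF was named lymphatic endothelial-like. Of the 2 members called in endothelial-like nuclei, 0 were called without doublet removal, 1 at resolution 1.0 and 1 after thinning. With no filter, the class comparisons gave 139 genes for fibroblast-like minus smooth muscle-like, 40 for pericyte-like minus fibroblast-like, 375 for endothelial-like minus fibroblast-like and 218 for endothelial-like minus pericyte-like nuclei. The mean BMP4 level of pericyte-like nuclei was 3.91 CPM without doublet removal.

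Deviations of same-numbered pigs from their group means had correlations of -0.16 to 0.08. With 2 control pigs these deviations mirror each other, so the check cannot exclude a pairing or a shared batch. With the replicate number as a block, 854 genes were called in smooth muscle-like and 118 in fibroblast-like nuclei, and 1 member in endothelial-like nuclei (SOX6 lost, adjusted p = 0.0618). The block also turned SOX5 to 0.13 in smooth muscle-like and 0.0096 in fibroblast-like nuclei and TRPS1 to -0.0601 in fibroblast-like nuclei.

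Other signs turned for members that no setting called. In smooth muscle-like nuclei RUNX2 was -0.0014 without doublet removal and BMP3 0.0571 with large unnamed clusters added. In fibroblast-like nuclei SOX6 was -0.53 without doublet removal, -0.49 at resolutions 0.5 and 2.0 and -0.014 after thinning, and RUNX2 was 0.13 without doublet removal and 0.0155 after thinning. In pericyte-like nuclei SOX5 was 0.19 at resolution 0.5, and TRPS1 was 0.11 there and 0.0761 after thinning.

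Leaving out 1 pig gave 2 to 113 called genes in smooth muscle-like nuclei (2 without obese pig 1 or control pig 1, 5 without control pig 2, 106 without obese pig 2), 0 to 160 in fibroblast-like, 0 in pericyte-like, 128 to 524 in endothelial-like nuclei and 18 to 306 in cluster 8. Called members ranged from 0 to 1 in smooth muscle-like and 1 to 2 in endothelial-like nuclei, and without control pig 1 BMP4 was among them. The class comparisons ranged from 0 to 56 genes for fibroblast-like minus smooth muscle-like, 22 to 101 for pericyte-like minus smooth muscle-like, 197 to 574 for endothelial-like minus smooth muscle-like, 0 to 18 for pericyte-like minus fibroblast-like, 6 to 157 for endothelial-like minus fibroblast-like and 23 to 104 for endothelial-like minus pericyte-like nuclei. Log2 differences crossed 0 for SOX5 (-0.17 to 0.12), MSX2 (-0.0118 to 1.61) and BMP3 (-1.25 to 1.62) in smooth muscle-like nuclei. They did so for SOX5 (-0.26 to 0.0808), SOX6 (-0.29 to 0.46), RUNX2 (-0.28 to 0.0256) and TRPS1 (-0.0564 to 0.32) in fibroblast-like nuclei. TRPS1 ranged from -0.47 to 0.20 in pericyte-like, -0.66 to 0.0607 in endothelial-like nuclei and -0.11 to 0.43 in cluster 8, where BMP4 ranged from -1.12 to 0.18. Members with few UMIs (SOX9, MSX2, BMP2 and BMP3) were limited by depth.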
